A study of Mus musculus with 4 samples.

Results

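Il10, the gene of the anti-inflammatory cytokine interleukin-10, and 6 genes of transcription factors with a known part in its control, Prdm1 (Blimp-1), Maf, Ahr, Irf4, Nfil3 and Bhlhe40, were compared between effector T cells sorted for high or low CD5. The 7 genes were chosen by name, with their values in this comparison already known, and all 7 were among the 7252 genes tested in the authors' deposited table. Both groups came from NOD.Foxp3-GFP mice of 6 to 9 weeks. NOD mice become diabetic through autoimmunity, and GFP in this line reports Foxp3, the factor of regulatory T cells. The tissue label names pancreatic islets and spleen, and the titles and the design text refer to islets. There were 2 libraries of CD5 high cells and 2 of CD5 low cells, and the table gives 1 combined value per group. The values are FPKM, fragment counts per kilobase of transcript after scaling to library size, so that levels can be set side by side between genes, and no spread between libraries, SD or sequencing depth can be given. CD5 is a surface protein of T cells whose level is widely read as a measure of self-reactivity, and Cd5, the sorted gene, had 206 FPKM in CD5 high and 45.4 FPKM in CD5 low cells.

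IL-10 is made by many kinds of T cell and dampens the response of antigen-presenting cells and of inflammatory T cells. In conventional CD4 T cells its gene is switched on by strong or repeated stimulation, and the basic leucine zipper protein Maf, the ligand-activated aryl hydrocarbon receptor and the zinc finger protein Blimp-1 all promote it, with Irf4 and Nfil3 acting in some T helper subsets. Bhlhe40, a basic helix-loop-helix repressor, holds Il10 down in T cells. Maf and the aryl hydrocarbon receptor act together in type 1 regulatory (Tr1) cells, which make IL-10 without Foxp3. Irf4 and Blimp-1 are needed for IL-10 in regulatory T cells.

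The promoter sequences show what lies just before a transcript start of the regulators themselves, and are given for the members with an entry in the RefSeq promoter table (GRCm38.p6), which were 3 of 7: Prdm1 and Nfil3, both more than 2-fold apart between the groups, and Irf4, with nearly equal values. Entries for Il10, Maf, Ahr and Bhlhe40 were not used here. Each line gives the 250 bases before the transcript start that this table lists, 5′ to 3′ on the strand of the gene, and capitals mark motif matches.
Prdm1: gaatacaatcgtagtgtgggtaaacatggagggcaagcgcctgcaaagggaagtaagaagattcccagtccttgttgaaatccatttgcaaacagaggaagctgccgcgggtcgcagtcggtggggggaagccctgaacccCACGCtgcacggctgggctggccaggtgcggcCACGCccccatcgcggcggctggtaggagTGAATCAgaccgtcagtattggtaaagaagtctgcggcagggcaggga
Nfil3: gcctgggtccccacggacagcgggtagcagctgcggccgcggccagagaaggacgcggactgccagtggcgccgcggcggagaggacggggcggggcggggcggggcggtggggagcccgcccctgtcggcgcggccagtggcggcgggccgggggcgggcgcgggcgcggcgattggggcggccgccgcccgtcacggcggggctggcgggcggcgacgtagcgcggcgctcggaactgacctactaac
Irf4: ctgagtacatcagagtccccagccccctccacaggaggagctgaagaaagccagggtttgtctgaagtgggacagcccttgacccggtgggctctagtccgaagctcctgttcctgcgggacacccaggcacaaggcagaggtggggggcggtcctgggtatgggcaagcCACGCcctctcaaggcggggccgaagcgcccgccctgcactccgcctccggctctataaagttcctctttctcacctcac
The Prdm1 stretch lies at chr10:44458749-44458998 on the minus strand, the Nfil3 stretch at chr13:52981040-52981289 on the minus strand, and the Irf4 stretch at chr13:30748983-30749232 on the plus strand. The starts used for Prdm1 and Nfil3 are internal to the full RefSeq genes, whose 5′ ends lie further upstream, at 44528558 for Prdm1 and 52982878 for Nfil3, and the sequence before those ends was not searched.

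In these stretches 7 short motifs were searched on both strands, each the usual core for a member or its partners. The XRE core GCGTG, bound by the aryl hydrocarbon receptor with Arnt, was found at 2 places before Prdm1 (109 and 77 bases before the internal start, taken at the first base of the match) and at 1 place before Irf4 (80 bases before it), each time as its reverse CACGC, and at 0 places before Nfil3. Of 32851 promoter entries of the same length, 28.2% held this core. The AP-1 motif TGANTCA, the site of the Jun and Batf partners of Irf4, was found once, before Prdm1, 48 bases from the same internal start, and 6.75% of all entries held it. The other 5 motifs had 0 matches in the 3 stretches: the E-box CACGTG read by Bhlhe40 (in 6.02% of all entries), the Maf half-site TGCTGA (16.1%), the interferon response core read by Irf4, here GAAA, any 2 bases and GAAA (2.98%), the Blimp-1 motif AGTGAAAG (1.09%) and the Nfil3 motif TTANGTAA (2.06%). No matches overlapped. The bases G and C made up 81.6% of the Nfil3 stretch, 59.2% of the Prdm1 stretch and 63.6% of the Irf4 stretch, against a median of 52.4% over all entries. A match is a run of letters and not a shown binding site, and a motif without a match says only that these letters are not in this window.

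All 7 genes had the higher value in CD5 high cells, as did 49.1% of all tested genes. Il10 and Ahr passed the authors' threshold of q under 0.05, and the other 5 did not. These 2 calls stand beside 0.758% of all tested genes called in either direction and 0.538% called as higher in CD5 high, while 0 members and 0.221% of all tested genes were called as lower. At an unadjusted p under 0.05 the members numbered 6, against 10.3% of all tested genes in either direction and 5.58% as higher. The value was at least 2-fold higher in CD5 high for 4 members, Il10, Ahr, Nfil3 and Prdm1, and for 2.66% of all tested genes. The median log2 fold change was 1.02 over the 7 members and -0.01 over all tested genes. Because the genes were chosen with these values known, the counts describe the members and support nothing further.

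**Figure D1:**
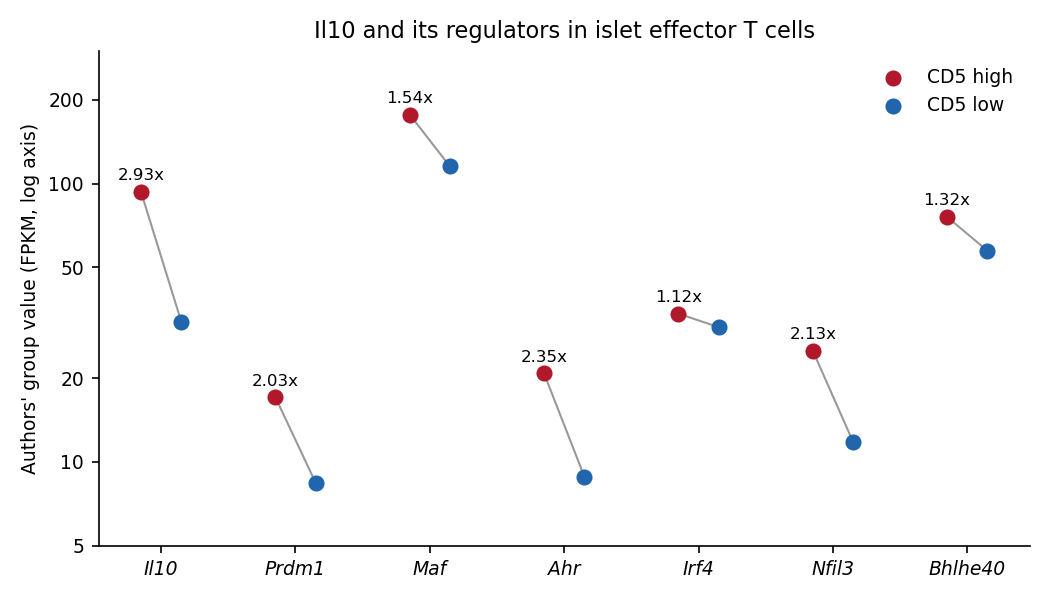
Authors' FPKM value (vertical log axis) of Il10 and the 6 regulators in CD5 high cells (red, left of each pair) and CD5 low cells (blue, right), with the fold, CD5 high over CD5 low, above each pair. Each point is 1 combined group value, with no error bar because no values per library were used. All 7 lines fall to the right, steepest for Il10 at 2.93-fold and flattest for Irf4 at 1.12-fold.

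Il10 had 93.4 FPKM in CD5 high and 31.9 FPKM in CD5 low cells, a 2.93-fold difference with a log2 fold change of 1.55 (q = 0.0110 in the authors' deposited table). This q is the smallest that the authors' deposited table holds, shared by the 33 genes with a p of 5e-05, so Il10 cannot be ranked among them by its test. By log2 fold change Il10 was number 68 from the top of the 7252 tested genes. Its level stood at percentile 88.4 of the tested genes in CD5 high cells and at percentile 67.3 in CD5 low cells. The transcript was thus above the median tested gene in both groups, with medians of 20.5 FPKM in CD5 high and 20.2 FPKM in CD5 low cells. In bulk samples such as these, more cells that make a transcript and more of it per cell cannot be told apart. Il10 lies on chromosome 1, 131019845 to 131024970 (mm10, plus strand), and 0 other GENCODE M21 genes overlapped it.

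Maf, a factor tied to Il10 across several T helper subsets, was the most abundant member in both groups. It had 177 FPKM in CD5 high and 115 FPKM in CD5 low cells, 1.54-fold apart (log2 fold change 0.62, q = 0.0952 in the authors' deposited table). It did not pass the threshold. The distance between the groups was 61.8 FPKM for Maf and 61.5 FPKM for Il10, nearly the same absolute step from very different starting levels. Set against Maf, Il10 stood at 0.528 of its FPKM in CD5 high cells and at 0.277 of it in CD5 low cells. Maf lies on chromosome 8, 115703253 to 115706894 (mm10, minus strand), where the antisense gene Gm15655 overlaps it. GENCODE M21 gives the gene a longer span, 115682942 to 115707794. FPKM depends on the transcript length used, so the comparison of Maf with Il10 rests on the authors' gene model.

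Ahr, the sensor of dietary, microbial and tryptophan-derived ligands that acts with Maf on Il10 in Tr1 cells, was the only regulator that passed the threshold. It had 20.8 FPKM in CD5 high and 8.85 FPKM in CD5 low cells, 2.35-fold apart (log2 fold change 1.23, q = 0.0110 in the authors' deposited table). Its level was modest, at percentile 50.7 of the tested genes in CD5 high and percentile 14.9 in CD5 low cells. Ahr lies on chromosome 12, 35497979 to 35534989 (mm10, minus strand), and the noncoding gene Gm48236 on the opposite strand overlaps its 5′ end. The library kit does not mark strand, so reads of Maf, Ahr and their opposite-strand neighbours were not separable by strand, and these neighbours had no row of their own in the table.

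Prdm1 encodes Blimp-1, which represses genes of naive and memory lymphocytes and promotes Il10 in effector T cells. It was the least abundant member in both groups, with 17.1 FPKM in CD5 high and 8.41 FPKM in CD5 low cells, 2.03-fold apart (log2 fold change 1.02). With q = 0.0553 in the authors' deposited table it lay just outside the threshold. It shared the smallest q above the threshold with Fcrl1, Stmn1 and S100a6, and the last genes inside it, at q = 0.0462 in the authors' deposited table, were Csf1, Hmgb2, Ptms and Tnfrsf18. Prdm1 lies on chromosome 10, 44437175 to 44458687 (mm10, minus strand), in the table, and RefSeq extends the gene to 44528558.

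Nfil3, a basic leucine zipper factor that supports Il10 in Th1 and other subsets and is also known from the circadian clock, had 25.1 FPKM in CD5 high and 11.8 FPKM in CD5 low cells. This was a 2.13-fold difference (log2 fold change 1.09) with q = 0.149 in the authors' deposited table. The fold of Nfil3 was thus larger than that of Prdm1, while its q was larger as well. Nfil3 lies on chromosome 13, 52967209 to 52981039 (mm10).

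Bhlhe40, the one repressor of Il10 in the set, also had its higher value in CD5 high cells. It had 75.9 FPKM in CD5 high and 57.3 FPKM in CD5 low cells, 1.32-fold apart (log2 fold change 0.40), with p = 0.0473 and q = 0.479 in the authors' deposited table. In CD5 high cells Il10 had 1.23 times the FPKM of Bhlhe40, and in CD5 low cells 0.556 times. The row of Bhlhe40 spans chromosome 6, 108577039 to 108666925 (mm10), while the RefSeq gene begins at 108660629. The span holds 3 further GENCODE genes, among them the antisense gene 0610040F04Rik, which overlaps the start of Bhlhe40, and none of the 3 had a row of its own in the table. Reads on opposite strands were not separable here either. The Bhlhe40 value, and with it the ratios to Il10, may therefore not rest on Bhlhe40 alone.

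Irf4, induced by T cell receptor signals and a partner of Batf at AP-1 composite sites, was the member with the smallest difference. It had 34.1 FPKM in CD5 high and 30.5 FPKM in CD5 low cells, 1.12-fold apart (log2 fold change 0.16), with p = 0.441 and q = 0.844 in the authors' deposited table. Il10 and Irf4 were close in CD5 low cells, where Il10 had 1.05 times the FPKM of Irf4, and in CD5 high cells Il10 had 2.74 times as much. Irf4 lies on chromosome 13, 30749258 to 30766927 (mm10).

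In order of level, CD5 high cells had Maf, Il10, Bhlhe40, Irf4, Nfil3, Ahr and Prdm1, from 177 to 17.1 FPKM, and CD5 low cells had Maf, Bhlhe40, Il10, Irf4, Nfil3, Ahr and Prdm1, from 115 to 8.41 FPKM. The orders differ in the places of Il10 and Bhlhe40, and the row of Bhlhe40 spans other genes too. With 1 value per group it cannot be said which neighbours in these orders differ beyond their spread. The 3 regulators with the lowest levels, Prdm1, Ahr and Nfil3, were the 3 with the largest folds, and each had at most 25.1 FPKM in either group. The lowest of all tested genes peaked at 6.82 FPKM, and all 7 members exceeded that value in both groups. A gene below that value in 1 group could be tested only through the other group, which fixes its direction.

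**Figure D2:**
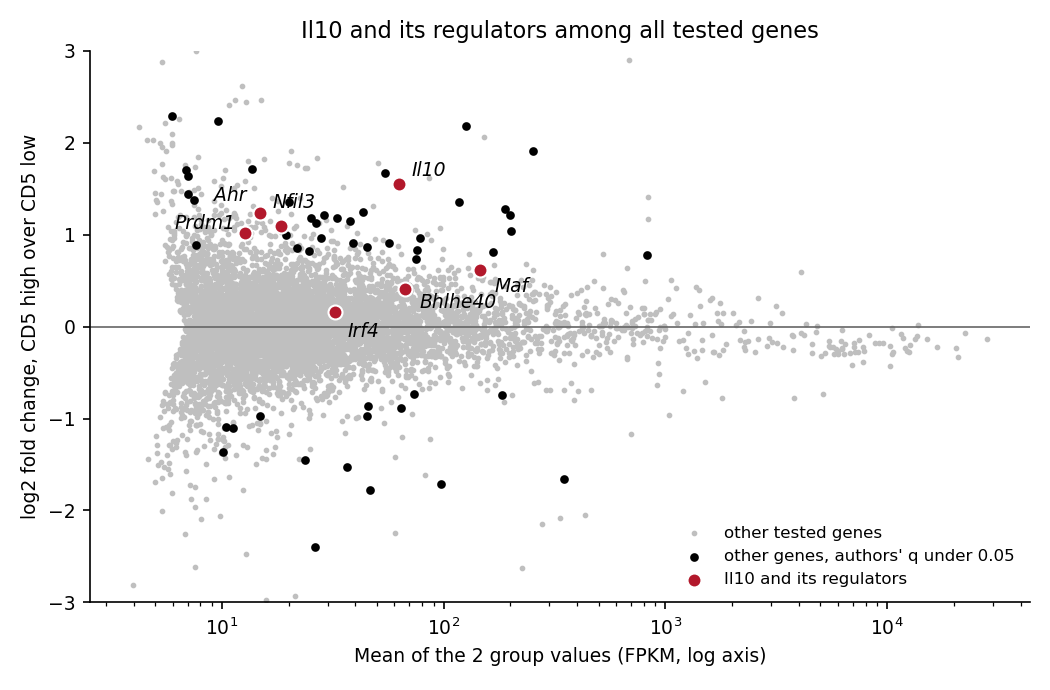
Log2 fold change, CD5 high over CD5 low (vertical axis), against the mean of both group values in FPKM (horizontal log axis) for all tested genes in grey, other genes with an authors' q under 0.05 in black and the 7 members in red. Il10 stands at 1.55 and Ahr at 1.23, among the black points, while Irf4 at 0.16 lies within the grey band; 32 tested genes beyond 3 in either direction, those listed at 0 in 1 group included, are outside the axis.

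Genes near the called members in level and fold were sought among the tested genes with a single name and expression in both groups. Names containing Rik, starting with Gm and a number, Mir or Sno, or shaped like dates were left out. Those whose pair of group values lay nearest to that of Il10, by Euclidean distance of log2 FPKM over these 2 values, were Tigit (distance 0.34), Tbc1d4 (0.45), Ccr8 (0.46), Hist2h4 (0.49) and Mrps36 (0.51). Tigit, an inhibitory receptor of T cells, had 83.0 FPKM in CD5 high and 26.0 FPKM in CD5 low cells (q = 0.0110 in the authors' deposited table). Tbc1d4, a Rab GTPase activator in glucose transport, had 74.2 FPKM in CD5 high and 39.5 FPKM in CD5 low cells (q = 0.0110 in the authors' deposited table). Ccr8, a chemokine receptor found on regulatory T cells and Th2 cells, had 70.3 and 36.7 FPKM in CD5 high and CD5 low cells and did not pass (q = 0.123 in the authors' deposited table). The genes nearest to Ahr were Ormdl2, Tmem5, Mgmt, Yif1b and Sytl1, at distances of 0.04 to 0.12. None of these 5 passed in the authors' deposited table, with q between 0.253 and 0.540, although their folds of 2.12 to 2.41 were close to that of Ahr. With only 2 values per gene, such likeness is a description of level and fold.

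Of other transcription factors with a reported part in Il10 control, 30 of 34 were tested and 0 passed the authors' q threshold in either direction. An unadjusted p under 0.05 was reached by 5, all with higher values in CD5 high. Their list had a median log2 fold change of 0.06, beside -0.01 for all tested genes. Beside this and the later lists stand 0.538% of all tested genes called as higher and 0.221% as lower. An unadjusted p under 0.05 was reached by 10.3% of all tested genes, 5.58% as higher. The lists were chosen with earlier results of these data known, so their counts are a description. Among these factors the smallest p belonged to Rbpj, the DNA-binding partner of Notch, with 27.8 FPKM in CD5 high and 16.7 FPKM in CD5 low cells (q = 0.0975 in the authors' deposited table). It was followed by Tbx21 (T-bet, the Th1 factor), with 22.9 FPKM in CD5 high and 13.0 FPKM in CD5 low cells, and Nfatc1, with 106 FPKM in CD5 high and 75.6 FPKM in CD5 low cells, both at q = 0.303 in the authors' deposited table. Abundant members of this list included Junb, Ets1 and Jun. Junb had 424 FPKM in CD5 high and 418 FPKM in CD5 low cells, Ets1 189 and 179 FPKM, and Jun 135 and 163 FPKM, in the same order of groups. Stat3, through which IL-6, IL-21 and IL-27 act on Il10, had 66.1 FPKM in CD5 high and 61.2 FPKM in CD5 low cells.

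The receptors for signals that can induce IL-10 had 0 of 12 tested members past the authors' q threshold, 3 at an unadjusted p under 0.05 and a median log2 fold change of 0.07, with 6 higher and 6 lower values in CD5 high cells. Icos, a costimulatory receptor that supports IL-10 and Maf, had 156 FPKM in CD5 high and 100.1 FPKM in CD5 low cells (q = 0.0714 in the authors' deposited table). Il2rb, the beta chain of the IL-2 receptor, had 68.9 FPKM in CD5 high and 43.8 FPKM in CD5 low cells (q = 0.148 in the authors' deposited table). Lower values in CD5 high were found for Il6ra, with 57.8 FPKM in CD5 high and 76.3 FPKM in CD5 low cells, and for the common gamma chain Il2rg, with 184 FPKM in CD5 high and 211 FPKM in CD5 low cells. The receptor chain for IL-27, Il27ra, had 70.6 FPKM in CD5 high and 63.1 FPKM in CD5 low cells.

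On the receiving side, 0 of 8 tested genes of the IL-10 receptor and its signalling passed the authors' q threshold, 1 had an unadjusted p under 0.05, and the list median was 0.14 (log2 fold change). The ligand-binding chain Il10ra had 16.8 FPKM in CD5 high and 12.7 FPKM in CD5 low cells, and the shared chain Il10rb had 10.7 FPKM in CD5 high and 15.1 FPKM in CD5 low cells. Their kinases lay in opposite directions, Tyk2 with 16.7 FPKM in CD5 high and 11.4 FPKM in CD5 low cells (p = 0.0345 in the authors' deposited table) and Jak1 with 131 FPKM in CD5 high and 153 FPKM in CD5 low cells. Among the targets of Stat3, Socs3 had 26.5 FPKM in CD5 high and 29.1 FPKM in CD5 low cells, Bcl3 had 27.9 and 21.1 FPKM, and the feedback inhibitor Socs1 had 49.7 and 44.3 FPKM, in the same order of groups.

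Of 10 tested Tr1 genes 9 were higher in CD5 high cells, beside the 49.1% of all tested genes. Of these, 3 rose at the authors' q threshold, beside 0.538% of all tested genes called as higher. An unadjusted p under 0.05 was reached by 8, beside 5.58% of all tested genes as higher, and the list median was 0.71 (log2 fold change). The 3 were the inhibitory receptors Lag3, Ctla4 and Tigit. Lag3 had 269 FPKM in CD5 high and 111 FPKM in CD5 low cells, and Ctla4 272 FPKM in CD5 high and 132 FPKM in CD5 low cells, both at q = 0.0110 in the authors' deposited table. Pdcd1 (PD-1) had 52.5 FPKM in CD5 high and 31.6 FPKM in CD5 low cells. The exception was Cd226, the activating receptor that shares its ligands with Tigit, with 17.4 FPKM in CD5 high and 24.1 FPKM in CD5 low cells. Itga2, Havcr2, Entpd1 and Gzmb of this list were not among the tested genes. Some Tr1 genes are counted in other lists too. Ctla4 is also a regulatory T cell marker here, and Icos, Pdcd1 and Il21 are also in the T follicular helper list. Il21 and Ifng are also among the other cytokines, so the counts of these lists are not independent.

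Maf also serves T follicular helper cells, and all 8 tested genes of that list had higher values in CD5 high, with 1 past the threshold, 7 at an unadjusted p under 0.05 and a median log2 fold change of 0.80. Over all tested genes 49.1% were higher in CD5 high, 0.538% were called as higher and 5.58% were higher at an unadjusted p under 0.05. The follicular gene that rose was Cd200, with 45.9 FPKM in CD5 high and 20.2 FPKM in CD5 low cells (q = 0.0186 in the authors' deposited table). Cxcr5, the follicle-homing receptor, had 24.8 FPKM in CD5 high and 12.2 FPKM in CD5 low cells, and Bcl6, the follicular lineage factor that Blimp-1 opposes, had 21.3 FPKM in CD5 high and 13.3 FPKM in CD5 low cells (q = 0.0975 and 0.347 in the authors' deposited table). Prdm1 and Bcl6 thus both had their higher value in CD5 high cells, 2.03-fold and 1.60-fold.

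Among other cytokine genes 1 of 16 tested members rose and 0 fell, 8 had an unadjusted p under 0.05 (6 with higher and 2 with lower values in CD5 high) and the list median was 0.45 (log2 fold change). Over all tested genes 0.538% were called as higher, and 10.3% had an unadjusted p under 0.05, 5.58% as higher. The cytokine gene that rose was Csf1, the macrophage colony-stimulating factor, from a low level. It had 9.87 FPKM in CD5 high and 2.02 FPKM in CD5 low cells (q = 0.0462 in the authors' deposited table). As no tested gene peaked below 6.82 FPKM, Csf1 could be tested only through its CD5 high value, and its direction carries no weight. Ifng, the Th1 cytokine, had 98.3 FPKM in CD5 high and 69.8 FPKM in CD5 low cells (p = 0.0409, q = 0.457 in the authors' deposited table). Il10 and Ifng were thus at nearly the same level in CD5 high cells, 93.4 and 98.3 FPKM, while in CD5 low cells Il10 at 31.9 FPKM was below Ifng. Il21, a cytokine that Maf promotes, had 19.3 FPKM in CD5 high and 12.0 FPKM in CD5 low cells, and Tgfb1, the other main suppressive cytokine, 40.5 FPKM in CD5 high and 30.6 FPKM in CD5 low cells; both were singled out after their values were seen. Cd40lg, which licenses antigen-presenting cells, had the opposite direction, with 60.5 FPKM in CD5 high and 93.5 FPKM in CD5 low cells (q = 0.323 in the authors' deposited table). Tnfsf8 had 79.4 FPKM in CD5 high and 55.8 FPKM in CD5 low cells. The highest levels were those of Ccl5, with 1106 FPKM in CD5 high and 1020 FPKM in CD5 low cells, Ltb, with 280.0 and 347 FPKM, and Ccl4, with 156 and 106 FPKM, in the same order of groups.

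**Figure D3:**
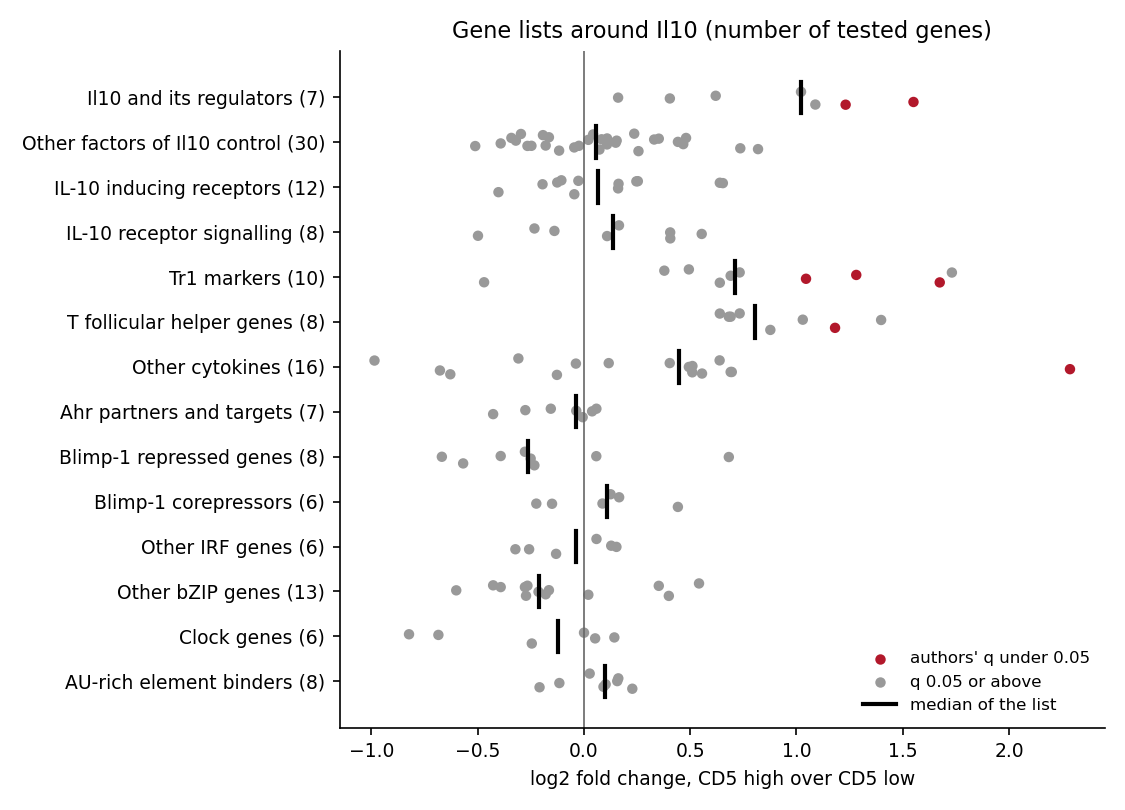
Log2 fold change, CD5 high over CD5 low (horizontal axis), of each tested gene in the members and 13 gene lists around Il10 (rows, number of tested genes in brackets), with red points for an authors' q under 0.05 and a black bar at the median of the list; points are spread vertically only to separate them. The medians of the members (1.02), the T follicular helper genes (0.80) and the Tr1 markers (0.71) stand to the right, and that of the Ahr partners and targets (-0.04) lies near 0.

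The tested partners and induced genes of the aryl hydrocarbon receptor had group values close together, from 0.74-fold to 1.04-fold, beside the 2.35-fold difference of Ahr itself. Of 14 listed genes 7 were tested, 0 passed the authors' q threshold, 0 had an unadjusted p under 0.05 and the list median was -0.04 (log2 fold change). Tiparp, a directly induced gene and feedback inhibitor of the receptor, had 24.2 FPKM in CD5 high and 24.3 FPKM in CD5 low cells. Arnt, the partner needed for DNA binding, had 7.26 FPKM in CD5 high and 7.44 FPKM in CD5 low cells. The chaperones that hold the receptor in the cytosol were abundant, with Hsp90aa1 at 1482 FPKM in CD5 high and 1793 FPKM in CD5 low cells, Hsp90ab1 at 924 and 1030 FPKM, and Ptges3 at 111 and 106 FPKM, in the same order of groups. Nfe2l2 had the lowest fold of the list, 0.74, with 25.4 FPKM in CD5 high and 34.2 FPKM in CD5 low cells. The classical induced genes Cyp1a1, Cyp1b1 and Ahrr were not among the tested genes, so few induced genes of the receptor could be read.

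Of 8 tested genes reported to be repressed by Blimp-1, 6 had the lower value in CD5 high cells. None of the 8 passed the authors' q threshold, 3 had an unadjusted p under 0.05 and the list median was -0.26 (log2 fold change). Ccr7, a lymph node homing receptor, had 142 FPKM in CD5 high and 210.0 FPKM in CD5 low cells (q = 0.169 in the authors' deposited table). The stem-like factor Tcf7 had 127 FPKM in CD5 high and 151 FPKM in CD5 low cells, and Fos had 440 FPKM in CD5 high and 533 FPKM in CD5 low cells. Id3, with 120 FPKM in CD5 high and 115 FPKM in CD5 low cells, and Bcl6 had the other direction. Proteins reported to work with Blimp-1 in repression had a median of 0.11 with 0 of 6 past the threshold and 0 at an unadjusted p under 0.05. Among them the histone methyltransferase gene Ehmt2 had 35.5 FPKM in CD5 high and 26.1 FPKM in CD5 low cells, Tle3 had 49.1 and 43.8 FPKM, Hdac1 38.5 and 42.7 FPKM and Hdac2 24.0 and 22.6 FPKM, in the same order of groups.

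In the families of the regulators values lay in both directions. Of the other interferon regulatory factors 6 were tested, with 3 higher and 3 lower values in CD5 high, 0 past the threshold, 0 at an unadjusted p under 0.05 and a median of -0.04. Irf1 had 151 FPKM in CD5 high and 181 FPKM in CD5 low cells, Irf2 had 82.8 and 103 FPKM, Irf3 had 68.9 and 66.1 FPKM, Irf9 had 40.9 and 44.7 FPKM, Irf7 had 38.0 and 34.2 FPKM and Irf8 had 8.67 and 7.93 FPKM, in the same order of groups. Of 13 tested basic leucine zipper genes other than Maf and Nfil3, 9 were lower in CD5 high cells, 0 passed, 0 had an unadjusted p under 0.05 and the median was -0.21. Bach2, which restrains effector genes and competes at AP-1 sites, had 17.3 FPKM in CD5 high and 22.7 FPKM in CD5 low cells, and Bach1 had 5.62 FPKM in CD5 high and 8.51 FPKM in CD5 low cells. Batf, the partner of Irf4, had 101 FPKM in CD5 high and 113 FPKM in CD5 low cells, and Jund had 101 and 114 FPKM in the same order.

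Nfil3 and Bhlhe40 are also clock-linked genes, and the clock list had 6 of 16 genes tested, 0 past the authors' q threshold, 1 at an unadjusted p under 0.05 and a median of -0.12. Clock had 4.21 FPKM in CD5 high and 7.44 FPKM in CD5 low cells (p = 0.0167 in the authors' deposited table), Cry2 had 6.62 and 10.6 FPKM, Per1 had 20.2 and 19.5 FPKM, Cry1 had 10.7 and 9.67 FPKM, Nr1d2 had 8.91 and 8.90 FPKM and Rora had 7.92 and 9.38 FPKM, in the same order of groups. For binders of AU-rich elements, which shorten the life of Il10 and other cytokine messages, 0 of 8 passed, 0 had an unadjusted p under 0.05 and the median was 0.10. Zfp36, the gene of tristetraprolin, had 62.1 FPKM in CD5 high and 71.8 FPKM in CD5 low cells, Zfp36l1 had 249 and 213 FPKM, Zfp36l2 had 196 and 212 FPKM and Tial1 had 26.8 and 24.0 FPKM, in the same order of groups. Of 8 genes beside Il10 in the genome 2 were tested and neither passed or reached an unadjusted p under 0.05: Mapkapk2, with 22.5 FPKM in CD5 high and 16.7 FPKM in CD5 low cells, and Eif2d, with 13.7 FPKM in CD5 high and 11.4 FPKM in CD5 low cells. Il19, Il20 and Il24, the cytokine genes of the cluster, were not among the tested genes.

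Other cells could also carry Il10 and its regulators, and their markers were set beside the members. The sorted cells had T cell transcripts at like levels in both groups, with Cd3e at 462 FPKM in CD5 high and 417 FPKM in CD5 low cells and Cd4 at 243 FPKM in CD5 high and 248 FPKM in CD5 low cells. Of 10 listed markers of regulatory T cells 8 were tested, without Il2ra and Gpr83. All 8 were higher in CD5 high cells, beside 49.1% of all tested genes. At the authors' q threshold 5 rose, Ctla4, Tnfrsf4, Tnfrsf18, Ikzf2 and Folr4 (Izumo1r), beside 0.538% of all tested genes called as higher. The list had a median log2 fold change of 1.09 and a summed level of 1068 FPKM in CD5 high and 513 FPKM in CD5 low cells. Foxp3 itself had 12.3 FPKM in CD5 high and 1.10 FPKM in CD5 low cells (q = 0.298 in the authors' deposited table). As no tested gene peaked below 6.82 FPKM, Foxp3 could be tested only through its CD5 high value, and its direction carries no weight. The labels call the cells effector T cells of a Foxp3 reporter line, a reporter with which regulatory T cells can be sorted away, and the labels do not say whether GFP-positive cells were removed. Regulatory T cells can express Il10, Prdm1, Maf, Ahr and Irf4, and the part of such cells in the values of the members was not tested.

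Myeloid markers went the other way. Of 19 listed genes only 8 were tested, and 7 of these had the lower value in CD5 high cells. At the authors' q threshold 5 fell, Cd74, H2-Aa, H2-Eb1, H2-Ab1 and Fcer1g, beside 0.221% of all tested genes called as lower. The lower values of Cst3 and Apoe were not called (q = 0.680 and 0.662 in the authors' deposited table). The tested members had a summed level of 634 FPKM in CD5 high and 1234 FPKM in CD5 low cells. Fcer1g was listed at 0 in CD5 high cells and had 15.8 FPKM in CD5 low cells, so it could be tested only through its CD5 low value. Ctss, with 144 FPKM in CD5 high and 133 FPKM in CD5 low cells, was the member of this list with the higher value in CD5 high. Macrophages and dendritic cells can express Il10, Maf and Ahr too. The B and plasma cell list, another possible source of Il10, Prdm1 and Irf4, had 1 of 11 genes tested, Cd79b, with 14.0 FPKM in CD5 high and 11.0 FPKM in CD5 low cells. The NK and innate lymphoid list had 2 tested members, both lower in CD5 high, with a sum of 12.8 FPKM in CD5 high and 33.8 FPKM in CD5 low cells, and the CD8 list had 0. Endocrine transcripts summed to 2794 FPKM in CD5 high and 321 FPKM in CD5 low cells over 5 genes, a sum carried by Ins2 with 2395 FPKM in CD5 high and 26.7 FPKM in CD5 low cells. Of these genes Ins1 rose, while Sst, with 6.86 FPKM in CD5 high and 263 FPKM in CD5 low cells (q = 0.0714 in the authors' deposited table), and Ppy, with 5.63 FPKM in CD5 high and 19.4 FPKM in CD5 low cells, had the lower value in CD5 high and did not pass. Exocrine transcripts summed to 1775 FPKM in CD5 high and 1935 FPKM in CD5 low cells over 15 genes, of which Cel fell. In the immediate early, heat shock and nuclear RNA list 11 of 13 members were lower in CD5 high cells, with 0 past the threshold, 0 at an unadjusted p under 0.05 and a median log2 fold change of -0.15. The part of these other transcripts in the values of Il10 and its regulators was not tested.

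**Figure D4:**
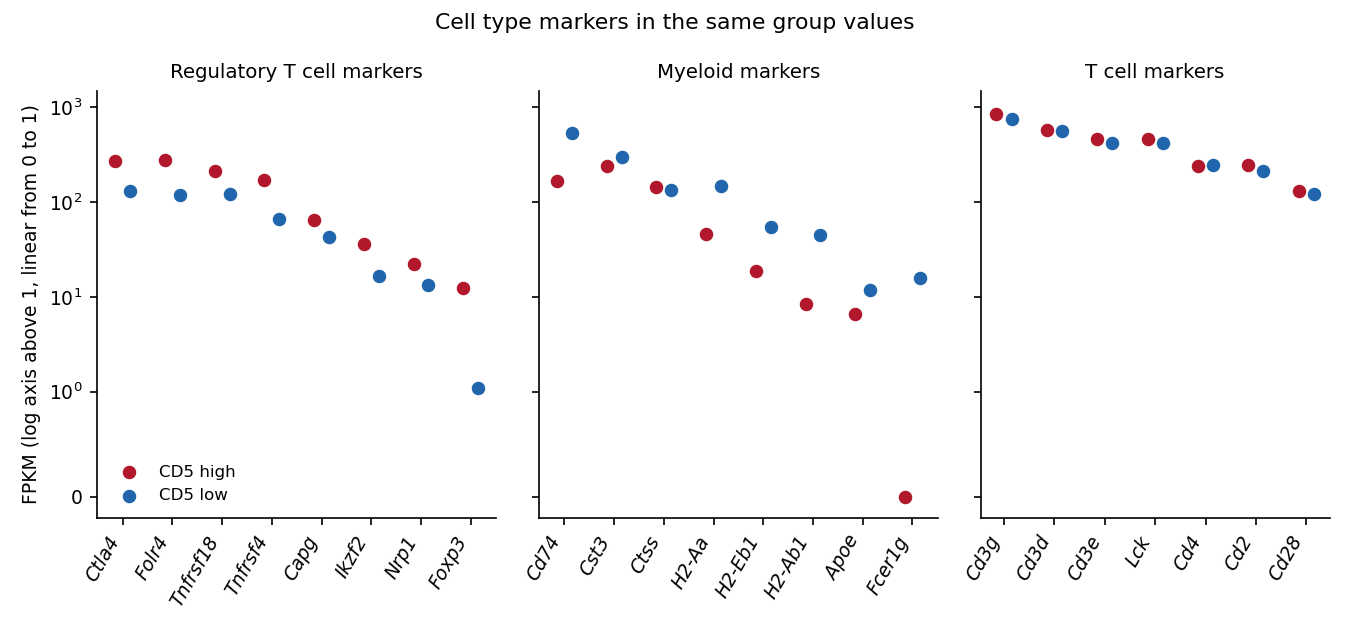
FPKM of the tested regulatory T cell, myeloid and T cell markers (vertical axis, logarithmic above 1 and linear from 0 to 1) in CD5 high cells (red, left) and CD5 low cells (blue, right), 1 combined value per group. Each of the 8 regulatory T cell markers is higher in CD5 high, 7 of 8 myeloid markers are lower, and 6 of 7 T cell markers are slightly higher.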

How the data were processed

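RNA sequencing of islet effector T cells gave 4 libraries, 2 of CD5 high and 2 of CD5 low cells, made with Nextera XT from amplified cDNA of lysed cells, per the labels' protocols. TopHat 1.0.0, Cufflinks and the build mm10 are named in the submitters' processing notes. No Cufflinks version or annotation is named there. The authors deposited 1 table with 1 FPKM value per group and, for each gene, a log2 fold change, a score (the test statistic), a q-value and the p-value behind it, with the column names of a Cuffdiff output, per the file headers. Of 7404 rows 7252 had the status OK and count as tested. The deposited log2 fold change equals the ratio of the FPKM values to within 5.1e-05, so no pseudocount was used.

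A gene is called where the authors' q-value was under 0.05. The intended limma fit on single libraries was replaced by the authors' comparison, since no values per library were used, and depth is unknown. The labels do not say that libraries came from separate animals, so the p-values may measure technical spread only. Folds, medians and counts were computed with Python 3.11.15, numpy 2.4.6 and pandas 2.3.3; the Benjamini-Hochberg adjustment was tested on simulated data. The members and 23 gene lists (14 around Il10, 9 of markers) were chosen with earlier results of these data known. Genes named in a list were those called, the 4 of the rest with the highest mean FPKM and the 2 with the smallest p, and all tested genes of the Il10 neighbour, Ahr, IRF and Il10 receptor lists. A few genes that this rule names are counted in their lists but not reported here. Il21, Tgfb1, Batf, the genes beside Prdm1 in q, and Foxp3, Cd3e, Cd4 and Cd79b among the markers were named after their values were seen. Coordinates are those of the table (mm10), and overlapping genes come from GENCODE M21.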

Additional observations from a re-analysis of the deposited data

How the results depend on the processing

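At a q under 0.1 the members called were 4, Prdm1 and Maf besides Il10 and Ahr, and the genes called over the whole table were 93 in place of 55. At a q under 0.01 both counts were 0, because the smallest q in the authors' deposited table is 0.0110; 6 members and 746 genes had an unadjusted p under 0.05. When only the 3703 genes with a mean of at least 20 FPKM were kept and the authors' p-values adjusted again, 1 member, Il10, was called, because Ahr, Prdm1 and Nfil3 lie below that mean, and 42 genes were called in all. When the rows of the marker genes of other cells were left out, regulatory T cell markers included, Il10 and Ahr were both called at an adjusted value of 0.0144. In all, 37 genes were called. This setting only adjusts the authors' unchanged p-values again, and Il10 and Ahr hold the smallest p. It takes no reads of other cells out of the members' values, so it cannot show the part of such cells. The direction of all 7 members was kept in all 21 recomputed values (1 FPKM added, quantile normalization and median centring), with Il10 between 1.52 and 1.56, Ahr between 1.14 and 1.24 and Irf4 between 0.13 and 0.17 on the log2 scale. Adding 1 FPKM to both values cannot change a direction, and median centring raised every value by the same small amount. Only quantile normalization could therefore have changed the direction of a member. The median of the members was 0.51 in the set with a mean of at least 20 FPKM, which keeps 4 of them. None of 75 recomputed list medians changed sign. The titles number the libraries 3 and 4 in both groups, so each CD5 high library has a CD5 low library of the same number. Whether the authors' test used this matching is not stated. No paired analysis was possible because the table holds 1 value per group, and leaving out each replicate could not be run for the same reason.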
